A study of Homo sapiens with 39 samples.

Results

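The genes described here are 46 human genes of DNA replication and of the synthesis of its nucleotide precursors, chosen by name from what is known of their function. Earlier results of these data were known when the genes were chosen. The deposited tables held a target for 45 of them among 20802 gene targets, and PRIM2 had none. HepaRG cells are a human hepatic progenitor line whose differentiated cultures hold hepatocyte-like and cholangiocyte-like cells and keep much of the drug metabolism of liver. Differentiated cells were given each chemical daily over 3 days. Cells for RNA were collected some hours after the last dose, without the growth factor that the study later gave to other cultures to induce division. The RNA of 3 cultures of a condition was pooled into 1 AmpliSeq library, so that every condition was measured once. AmpliSeq reads a short amplified piece of each transcript, with 1 target per gene, and levels are given as RPM, the reads of a gene scaled to the total reads of its library. RPM compares libraries and not genes, since amplified pieces differ in how well they are read.

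The 39 libraries comprised 10 chemicals at 3 concentrations and 9 vehicle controls. The 5 chemicals labelled DNA damage-inducing (DDI) were 2-nitrofluorene (2NF) at 10, 50 and 250 µM, aflatoxin B1 (AFB1) at 0.25, 1 and 2.5 µM, cisplatin (CISP) at 2, 5 and 10 µM, etoposide (ETP) at 0.5, 2.5 and 10 µM and methyl methanesulfonate (MMS) at 50, 100 and 200 µM. The 5 non-DDI chemicals were colchicine (COL) at 0.05, 0.1 and 0.3 µM, 2-deoxy-D-glucose (2DG) at 1.25, 5 and 10 mM, ampicillin trihydrate (AMP) at 1, 3 and 10 mM, sodium ascorbate (ASC) at 1, 2 and 10 mM and sodium chloride (NaCl) at 1, 2.5 and 10 mM. The vehicle was DMSO for 2NF, AFB1, CISP, ETP and COL, water for MMS and medium for 2DG, AMP, ASC and NaCl. AFB1 and COL shared 1 DMSO control, and each other chemical had its own. Concentrations of a chemical are called low, mid and high below.

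Eukaryotic DNA is copied once per cell cycle. In G1 the origin recognition complex (ORC), CDC6 and CDT1 load the MCM2 to MCM7 helicase onto origins, a step called licensing, and geminin (GMNN) blocks CDT1 afterwards. At the start of S phase CDC45, the GINS complex and MCM10 activate the helicase, the primase and polymerase alpha start each strand, and polymerases delta and epsilon extend it on the sliding clamp PCNA, which the RFC complex loads. FEN1 and LIG1 join the lagging strand, CAF-1 (CHAF1A, CHAF1B) and ASF1B place histones behind the fork, and ribonucleotide reductase (RRM1, RRM2), thymidylate synthase (TYMS) and thymidine kinase (TK1) supply deoxynucleotides. Many of these genes are transcribed from late G1 into S phase under E2F transcription factors. Mature hepatocytes are mostly quiescent.

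RefSeq promoters (GRCh38.p14), 250 bases before to 50 bases after an annotated start, were matched to 38 members. The letters TTTCCCGC, TTTGGCGC, TTTCGCGC or TTTGCCGC, written forms of the E2F site, were found on either strand in 19 of the 38 promoters (50%), beside 4.37% of the 14199 promoters matched to all targets. The letters CCAAT were in 55.3% of the members' promoters and in 36.4% of all. A match of letters describes the sequence and does not show that a factor binds there. In the trend test described below, 3 of 7 members with a promoter that were called in 0 chemicals had a match. So did 16 of 31 called in 1 or more chemicals and 9 of 18 called in 3 or more. The promoters of ASF1B, TK1, RRM1, RRM2 and CDC45 held none. The stretches below, of 30 bases each, show the first match in some of the members that had one, from different roles. They are written 5′ to 3′ on the gene's strand with the matching letters in capitals.
CDT1, chr16:88803743-88803772, plus strand: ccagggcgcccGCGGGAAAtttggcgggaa
CDC6, chr17:40287875-40287904, plus strand: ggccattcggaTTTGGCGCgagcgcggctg
GINS2, chr16:85688967-85688996, minus strand: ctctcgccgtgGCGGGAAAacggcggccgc
PCNA, chr20:5126663-5126692, minus strand: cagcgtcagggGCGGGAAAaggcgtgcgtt
TYMS, chr18:657603-657632, plus strand: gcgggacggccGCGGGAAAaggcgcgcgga
DTL, chr1:212035729-212035758, plus strand: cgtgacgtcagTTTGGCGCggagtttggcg
CLSPN, chr1:35769965-35769994, minus strand: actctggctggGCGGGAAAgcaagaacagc
MCM2, chr3:127598402-127598431, plus strand: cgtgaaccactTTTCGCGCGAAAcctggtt

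In the PCNA promoter the match began 59 bases before the annotated start, in TYMS 39, in CDT1 35 and in GINS2 31 bases before it. In MCM2 and CDC6 it began 2 and 7 bases after the start. MCM6 held the most matches of the members searched, 4, in 2 overlapping pairs, and its stretch of 120 bases overlapped no exon of the GENCODE annotation.
MCM6, chr2:135876499-135876618, minus strand: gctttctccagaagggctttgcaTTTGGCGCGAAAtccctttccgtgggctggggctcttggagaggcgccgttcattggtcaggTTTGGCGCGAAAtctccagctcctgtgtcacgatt

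Library totals ran from 8504699 to 16425527 reads (median 11202013). Of the 45 members with a target, 43 had at least 10 reads in every library. POLE2, a polymerase epsilon subunit, had 5 to 48 reads, and RPA3, a subunit of the single-strand binding protein, had 0 reads in most libraries and never more than 1, which is under the 3 reads taken as the limit of detection (0.183 to 0.353 RPM by library). Counting error alone, at the median read count, was 2.27% for TYMS and 22.9% for POLE2, and variation between cultures was not measured, because each condition was 1 library. Between controls of the same vehicle, the median of the members' log2 ratio, log2(RPM + 1) of one library minus that of the other, differed from 0 by at most 0.16 for the 4 DMSO controls and at most 0.22 for the 4 media controls. The hepatocyte markers ALB, APOA1, APOB, TTR and FGB were read in all 39 libraries, whereas of the cholangiocyte markers KRT7, EPCAM and CFTR never passed 3 reads and KRT19, SOX9 and SPP1 were present. The share of targets over 1.5-fold lower than in the matched control was taken over the 12915 targets with a median of at least 10 reads. In the CISP libraries at 2 and 5 µM it was 15.7% and 14.7%, beside 2.83% at 10 µM. These 2 libraries were not alone in this, since the share was 16% in the mid MMS library and 13.2% in the high one. A fit without the CISP libraries at 2 and 5 µM was added after the values had been seen.

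Replication genes rose with concentration most broadly under 2NF and AFB1, both of which form bulky adducts once metabolised. The median log2 ratio of the 45 members to the matched control was 0.56, 0.89 and 1.32 at the low, mid and high concentration of 2NF and 0.25, 0.67 and 1.25 under AFB1. The median over the same 12915 targets lay between −0.01 and 0.09 in these 6 libraries. ETP followed with 0.13, 0.58 and 0.79, MMS with 0.18, 0.53 and 0.48, and COL with 0.43, 0.42 and 0.54. CISP gave 0.19, −0.01 and 0.42, and 2DG, AMP and ASC stayed between −0.16 and 0.24. Under NaCl the medians were −0.12, −0.23 and −0.38.

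**Figure D1:**
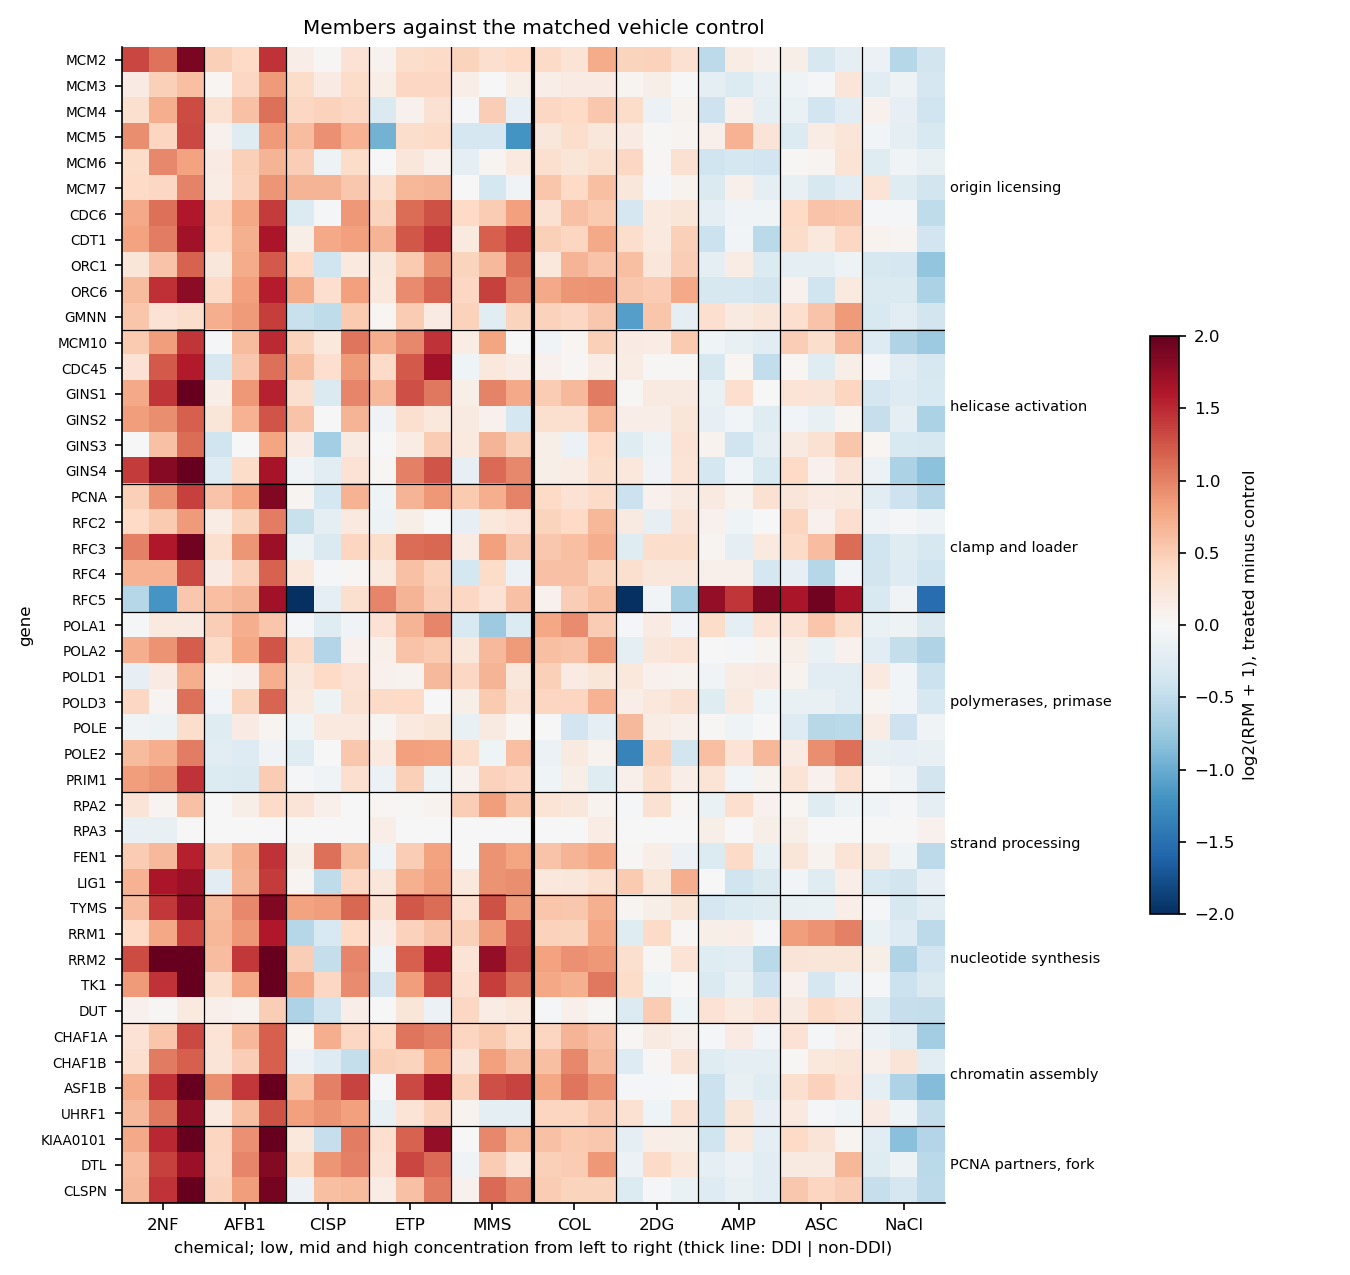
Heat map of log2(RPM + 1), treated minus matched control, for the 45 members with a target (rows, grouped by role) in the 30 treated libraries (columns, low to high within each chemical); red is higher and blue lower than the control. Red fills most of the 2NF and AFB1 columns and deepens with concentration, and the NaCl columns are mostly pale blue.

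Set against all 4 DMSO controls rather than the matched one, 44 of 45 members in the high 2NF library, 42 in the high AFB1 library, 40 in the high COL library, 35 in the high ETP library and 34 in the high CISP library lay above every DMSO control. Of the 12915 targets with a median of at least 10 reads, 35.6%, 33.6%, 33.7%, 17.8% and 24.9% did so in these libraries. In the high NaCl library 27 of 45 members lay below all 4 media controls, beside 25.3% of those targets. These are single libraries, with no replicate check.

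The increase with concentration was tested as a trend, the slope of log2 expression per concentration step (0 for the control, then 1, 2 and 3), in 1 edgeR quasi-likelihood fit of the 39 libraries. Of the 13812 genes that entered it, 44 were members, RPA3 being too low, and a gene was called at a Benjamini-Hochberg adjusted p under 0.05 over all 13812. The fit takes its error from the scatter of the libraries around straight lines, and since every condition was 1 pooled library, p-values measure that scatter and not the spread between cultures.

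2NF raised 34 of the 44 members and lowered none, where 4.3% of all genes tested were called higher and 4.45% lower. AFB1 raised 30 and lowered none, where 2.36% of all genes were called higher and 3.21% lower. Of these, 29 members were called under both, 85.3% of the 2NF list and 96.7% of the AFB1 list. MMS raised 13 members (background 5.1% higher, 10.4% lower), all 13 of which were also called under 2NF and under AFB1. ETP raised 6, where 0.0796% of all genes were called higher and 0% lower, and COL raised 6, where 5.13% were called higher and 7.21% lower. At an unadjusted p under 0.05, 28 members were higher under ETP, 22 under COL and 18 under MMS, with 0, 0 and 1 lower. Of all 13812 genes, 411, 1439 and 1606 were higher and 180, 1787 and 2324 lower at that level. Because p was adjusted within each chemical, counts of calls do not rank the chemicals. The median trend of the 44 members was 0.45, 0.41, 0.15, 0.30 and 0.21 log2 per step under 2NF, AFB1, MMS, ETP and COL, and that of all genes was between −0.01 and 0.01 in each.

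No member was called by edgeR under CISP, 2DG, AMP, ASC or NaCl. The background was 0% in each direction for CISP, 2DG and AMP, 0.0145% higher and 0.0434% lower for ASC, and 0.0362% higher and 0.00724% lower for NaCl. At an unadjusted p under 0.05, 14 members were higher and 0 lower under CISP, where 3.3% of all genes were higher at that level. Under ASC 5 were higher and 1 lower at that level, beside 6.87% of all genes higher and 7.36% lower. Under 2DG and AMP there were 0, also by DESeq2, beside 0.608% and 1.31% of all genes higher and 0.927% and 1.72% lower at that level. DESeq2 called 1 member higher under CISP, where it called 6 of 13812 genes higher and 7 lower. It called 1 higher under ASC, where it called 12 genes higher and 40 lower. Under NaCl 6 were lower at an unadjusted p under 0.05 (ASF1B, CHAF1A, GINS4, MCM10, ORC1 and POLA2), beside 1.54% of all genes, and DESeq2 called 0. The NaCl slope was below 0 in 42 of 44 members, with a median of −0.12 log2 per step.

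**Figure D2:**
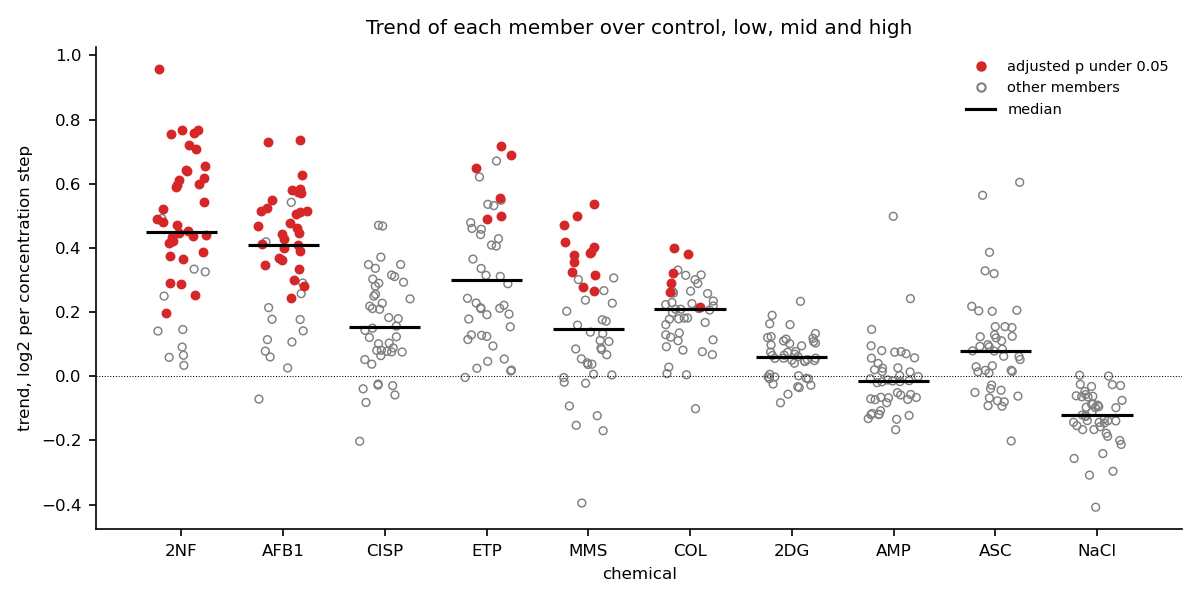
Trend of each of the 44 members tested (points) in each chemical, in log2 per concentration step; filled red points passed the adjusted p of 0.05, open points did not, and the bar is the median. All 44 points lie above 0 under 2NF and 42 of 44 lie below 0 under NaCl.

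Among the licensing genes the helicase loaders were called in more chemicals than the helicase subunits. ORC1 and ORC6, the origin recognition subunits in the list, rose under 2NF, AFB1 and MMS, CDT1 rose under these and ETP, and CDC6 rose under 2NF, AFB1 and ETP. CDT1, the helicase loader, was at 15.4 RPM in the MMS control and 17.7, 36.4 and 42.0 RPM at 50, 100 and 200 µM. The libraries at 100 and 200 µM of MMS lay above the other CDT1 values of the series. Its MMS trend was 0.50 ± 0.09 log2 per step (SE; adjusted p = 0.000592), a fitted 2.82-fold from control to high. In ETP CDT1 went from 3.56 RPM to 6.33, 9.76 and 11.3 RPM. The ETP control was the lowest of the 4 DMSO controls for CDT1, which spanned 3.56 to 6.18 RPM. GMNN, the inhibitor of CDT1, passed in no chemical, with slopes of 0.06 under 2NF and 0.42 under AFB1.

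Among MCM2 to MCM7, 5 of 6 rose under 2NF (all but MCM5) and 3 of 6 under AFB1 (MCM2, MCM3 and MCM4), with slopes from 0.20 to 0.59 and from 0.18 to 0.47 log2 per step. Under MMS 0 of 6 were called, with slopes from −0.40 to 0.08. MCM3 was at 69.7 RPM in the AFB1 control and 72.0, 93.5 and 126 RPM at the 3 concentrations. In MMS MCM3 was at 112 RPM in the control and 122, 111 and 121 RPM in the treated libraries, a spread with no order by concentration. MCM5 was at 46.6 RPM in the MMS control and 36.8, 36.7 and 19.9 RPM at 50, 100 and 200 µM, and its slope was −0.40 ± 0.14 (SE; adjusted p = 0.0615). The high MMS library was the lowest of the 4 for MCM5, and the decrease was called by DESeq2, with no filter, without the mid concentration and without the CISP libraries at 2 and 5 µM, but not with the edgeR settings used for the other values.

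The helicase activators rose together under 2NF, where 6 of 6 were called, and AFB1, where 5 of 6 were called. CDC45, which joins MCM and GINS in the active helicase, was at 2.35 RPM in the ETP control and 3.36, 6.81 and 9.76 RPM at 0.5, 2.5 and 10 µM. It had the largest ETP trend of the called members, 0.72 ± 0.11 log2 per step (adjusted p = 0.00622). The ETP control was also the lowest of the 4 DMSO controls for CDC45, which lay at 2.35, 3.55, 4.61 and 5.94 RPM. In MMS CDC45 stayed between 17.2 and 21.2 RPM, around its control at 18.2 RPM. GINS1 was the called member with the largest COL trend, 0.40 ± 0.11 (adjusted p = 0.0179), at 5.37 RPM in the control and 8.09, 8.94 and 12.1 RPM in the COL libraries.

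PCNA, the sliding clamp that also recruits repair enzymes, rose under 2NF, AFB1 and MMS. Its RPM was 57.1 in the 2NF control and 79.7, 107 and 149 at low, mid and high. In AFB1 PCNA was at 54.0 RPM in the control and 80.5, 94.6 and 197 RPM. In MMS it was at 96.3 RPM in the control and 139, 161 and 192 RPM. Each of these series of PCNA was in the order of concentration, and the trends were 0.44 ± 0.09, 0.52 ± 0.08 and 0.28 ± 0.09 log2 per step (SE), with adjusted p of 0.00156, 0.000285 and 0.0336. In the COL libraries, which shared the AFB1 control, PCNA was at 71.9, 66.5 and 70.7 RPM, and the trend was 0.11 ± 0.08 (adjusted p = 0.489). ETP gave 60.8, 104 and 118 RPM from a control at 64.8 RPM (0.34 ± 0.09, adjusted p = 0.2), and CISP gave 60.04, 45.1 and 94.4 RPM from 57.8 RPM (0.18 ± 0.09, adjusted p = 0.737). In NaCl PCNA was at 119 RPM in the control and 102, 88.8 and 79.7 RPM, in the order of concentration, with a slope of −0.17 ± 0.09 (adjusted p = 0.982). The adjusted p for PCNA was 1.00, 0.983 and 0.783 in 2DG, AMP and ASC, with slopes of 0.09, 0.08 and 0.06.

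Of the clamp loader, RFC2 and RFC3 rose under 2NF and AFB1, RFC4 under 2NF, and RFC2 under COL. RFC5 was called in no chemical and was uneven between libraries of the same kind: its 4 media controls were at 3.44, 3.71, 17.9 and 17.9 RPM and it was at 0.92 RPM in the low CISP library and 3.45 RPM in the low 2DG library. The large RFC5 ratios of AMP and ASC in the heat map were taken against the 2 low media controls. Of the polymerase and primase genes, 2 of 7 rose under 2NF (POLA2 and PRIM1) and 2 of 7 under AFB1 (POLA2 and POLD3). POLA2, the second subunit of polymerase alpha, was also called under MMS and COL. POLA1, the catalytic subunit of the same enzyme, had slopes of 0.07 and 0.08 under 2NF and AFB1 and was called nowhere, as were POLD1, POLE and POLE2. FEN1 and LIG1, which finish the lagging strand, rose under 2NF and AFB1, and LIG1 rose under MMS, where it was at 48.1 RPM in the control and 55.7, 91.0 and 92.2 RPM. RPA2 was called in no chemical.

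Nucleotide synthesis genes rose under 2NF, AFB1 and MMS, with the same 4 of 5 members called in each: RRM1, RRM2, TYMS and TK1. RRM2, the regulatory subunit of ribonucleotide reductase that is made in S phase, had the largest 2NF trend, 0.96 ± 0.15 log2 per step (SE; adjusted p = 0.000152), a fitted 7.33-fold from control to high. Its RPM was 28.9 in the 2NF control and 72.7, 153 and 219 in the treated libraries. In AFB1 RRM2 was at 30.9 RPM and then 47.8, 84.3 and 183 RPM (0.73 ± 0.13, adjusted p = 0.00073). In MMS it was at 80.4 RPM and then 97.6, 274 and 203 RPM (0.54 ± 0.15, adjusted p = 0.0166). The 2NF and AFB1 series of RRM2 followed the order of concentration, and in MMS the mid library was the highest. TYMS, which makes thymidylate, reached its highest level of the series, 495 RPM, in the mid MMS library, from a control at 205 RPM. DUT, which removes dUTP, was called in no chemical, with slopes between −0.14 and 0.12 log2 per step.

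The histone chaperone ASF1B was called in 5 chemicals, 2NF, AFB1, ETP, MMS and COL, more than any other member. It was at 6.16 RPM in the control that AFB1 and COL shared and at 12.7, 18.1 and 38.99 RPM in AFB1. In COL ASF1B was at 11.2, 14 and 12.4 RPM, all above the 4 DMSO controls, which spanned 6.16 to 7.57 RPM. The AFB1 trend of 0.74 ± 0.09 (adjusted p = 4.27e-05) was the largest of the members in that chemical. The ETP, MMS and COL trends of ASF1B were 0.69 ± 0.10 (adjusted p = 0.00326), 0.47 ± 0.10 (adjusted p = 0.00161) and 0.32 ± 0.10 (adjusted p = 0.0285). CHAF1A, CHAF1B and UHRF1, the last of which carries DNA methylation through replication, rose under 2NF and AFB1.

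KIAA0101 (the PCNA-binding protein PCLAF), DTL (a PCNA-dependent ubiquitin ligase adaptor that degrades CDT1) and CLSPN (the fork checkpoint mediator claspin) rose under 2NF and AFB1, 3 of 3 in each. KIAA0101 and DTL were also called under ETP, CLSPN under MMS and DTL under COL. CLSPN was at 4.61 RPM in the 2NF control and 7.83, 14.3 and 23.5 RPM in the treated libraries (0.77 ± 0.11, adjusted p = 3.7e-05). KIAA0101 in AFB1 went from 9.88 to 13.7, 19.6 and 47.0 RPM (0.63 ± 0.11, adjusted p = 0.000945), and in ETP from 9.15 to 11.8, 22.1 and 33.2 RPM (0.65 ± 0.13, adjusted p = 0.0492). The remaining trends among the 3 strongest of a chemical were ASF1B in 2NF (0.77 ± 0.10, adjusted p = 1.95e-05) and TK1 in COL (0.38 ± 0.12, adjusted p = 0.0305).

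**Figure D3:**
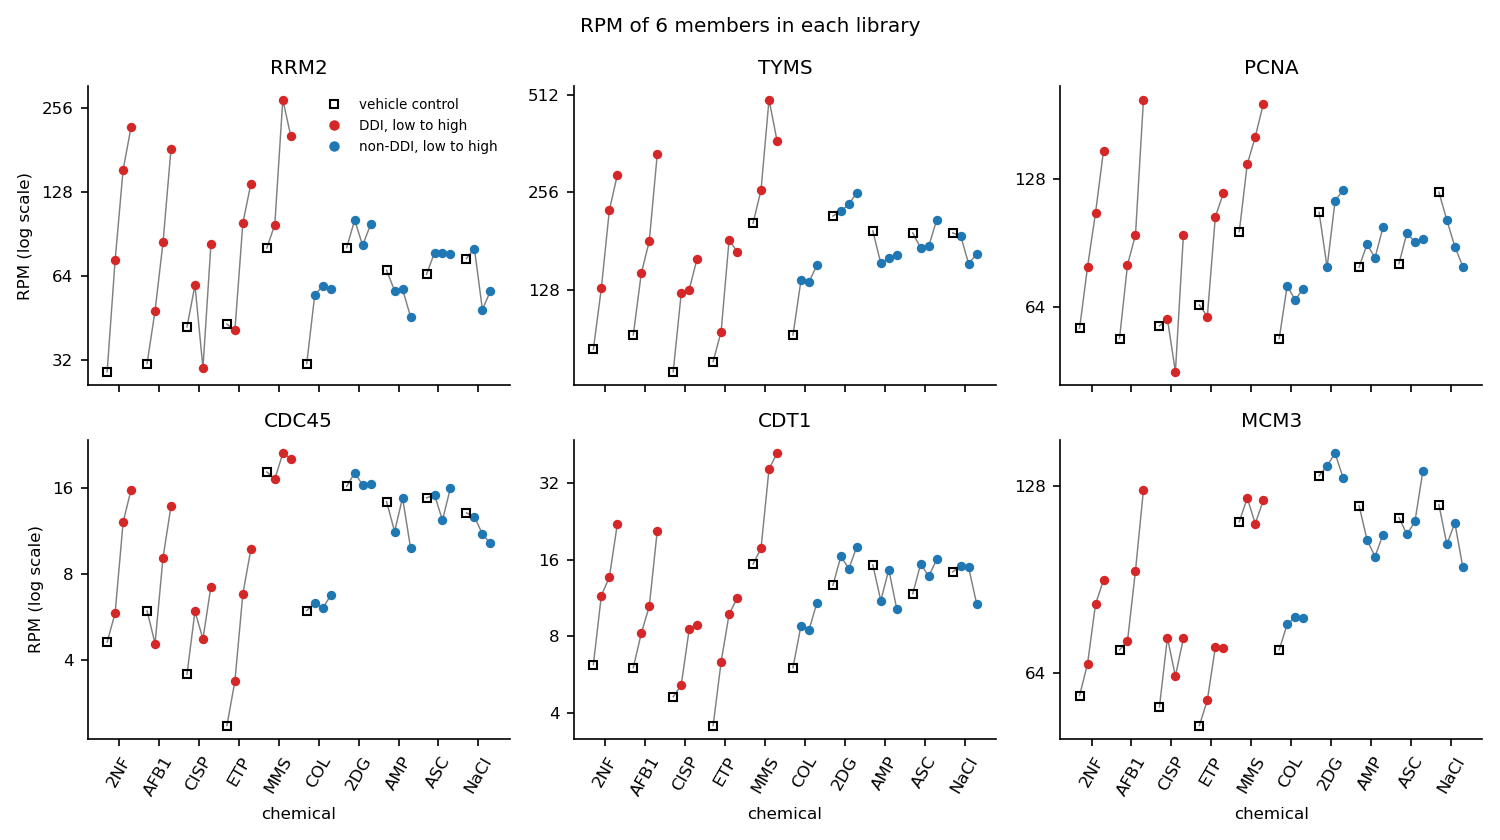
RPM (log2-spaced axis) of RRM2, TYMS, PCNA, CDC45, CDT1 and MCM3 in each library; the open square is the matched vehicle control and the 3 points are low, mid and high, red for DDI and blue for non-DDI chemicals. The MMS series start from a water control at the level of the media controls, 80.4 RPM for RRM2, and the DMSO series start from 28.9 to 42.9 RPM.

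The number of members called depended on the high concentration and on how concentration was coded. Without the high libraries, AFB1, ETP and COL had 0 members called, 2NF 13 and MMS 8, and with concentration relative to the highest in place of steps 2NF had 14, AFB1 26, MMS 2, and ETP and COL 0. With all controls of a vehicle in 1 block, so that 4 DMSO controls served each DMSO chemical, 28 members were called in COL, 16 in ETP, 4 in CISP, 38 in AFB1 and 37 in 2NF. Leaving out the low concentration took ETP to 0, MMS to 4 and COL to 2, and leaving out the mid concentration took COL to 2. Without the CISP libraries at 2 and 5 µM, COL had 13 members called in place of 6, and 2NF 35, AFB1 30, MMS 16 and ETP 7. At library totals in place of TMM scaling ETP had 2 and COL 11, and DESeq2 called 12 in ETP, where it called 38 of 13812 genes higher. For the other settings calls over all genes are not given, so whether members moved apart from other genes is not shown.

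The members were also set beside lists chosen for other functions, again with earlier results of these data known. The 12 genes of the mitosis list were CCNA2, CCNB1, CCNB2, CDK1, AURKA, AURKB, BUB1, PLK1, CDC20, BIRC5, MKI67 and TOP2A. Of these 12 mitosis genes, 10 rose under 2NF, 3 under AFB1, 5 under MMS and 11 under COL, and 0 in the other 6 chemicals. Over all genes tested, 4.3%, 2.36%, 5.1% and 5.13% were called higher under 2NF, AFB1, MMS and COL, and at most 0.0796% in the others. Under COL at most 1 member of any role rose, 6 of 44 in all, and under AFB1 30 of 44 did. Colchicine binds tubulin and holds dividing cells in mitosis. In COL, PLK1, AURKB, AURKA and CCNB1 had slopes of 0.81, 1.06, 0.96 and 0.74, and in AFB1 AURKB was at 1.04. AURKA and AURKB had few reads, 0 to 42 and 5 to 98 by library, and their COL slopes had SEs of 0.30 and 0.22.

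The difference between chemicals was tested within the same fit. The COL trend was lower than the AFB1 trend in 11 of 44 members and higher in 0, where 3.24% of all genes were lower and 3.03% higher. Because both series had the same control, this contrast rests on their treated libraries. The 11 members were PCNA, RRM1, RRM2, TYMS, ASF1B, KIAA0101, CLSPN, DTL, CDC45, MCM10 and MCM3. The differences were −0.40 ± 0.08 log2 per step for PCNA (adjusted p = 0.000997), −0.41 ± 0.12 for RRM2 (adjusted p = 0.0417), −0.41 ± 0.08 for ASF1B (adjusted p = 0.00242) and −0.41 ± 0.11 for KIAA0101 (adjusted p = 0.0243). In the same contrast 4 of 12 mitosis genes were higher in COL (PLK1, CCNB1, CDC20 and BIRC5) and 7 of 12 p53 targets lower, FDXR by −0.67 and TP53I3 by −0.45 among them. Without the low and the high concentration 5 and 0 members were called, and the vehicle block gave 6 and relative concentration 3.

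No member was called between 2NF and AFB1 by edgeR or DESeq2 (0.0652% of all genes higher and 0.0941% lower), and 1 member, PRIM1, was higher in 2NF at an unadjusted p under 0.05, beside 3.62% of all genes. PCNA differed by −0.08 ± 0.12 log2 per step (adjusted p = 0.997). A contrast of MMS with AFB1, added after the values had been seen, called 1 member lower, GINS2, at −0.56 ± 0.13 (adjusted p = 0.0322), where 0.695% of all genes were lower and 0.0507% higher. GINS2 was at 19.5 RPM in the MMS control and 22.2, 20.8 and 15.1 RPM in the treated libraries, and at 7.80 RPM and then 9.44, 13.3 and 20.0 RPM in AFB1. At an unadjusted p under 0.05, 14 members were lower in MMS and 0 higher, beside 7.49% of all genes lower and 4.04% higher. DESeq2 called 3 members lower, where it called 168 of 13812 genes lower and 31 higher. Among MCM2 to MCM7 the differences ran from −0.57 to −0.14 and none was called, so the lack of MCM calls under MMS was not shown to differ from AFB1. GINS2 lost its call without any one of the concentrations, with relative concentration the adjusted p was 0.0657, and the PCNA difference was −0.24 ± 0.12 (adjusted p = 0.46).

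The hepatocyte markers fell where the replication genes rose in 4 chemicals: of 10, 6 fell under 2NF, 5 under AFB1, 6 under MMS and 7 under COL. Over all genes tested, 4.45%, 3.21%, 10.4% and 7.21% were called lower in these chemicals. ALB had the most reads of the 10, a median of 230388 by library with APOB next at 39463, and weighs most in their sum. Among the chemicals, ALB itself was called lower under MMS only. The summed level of the 10 markers was 36678 RPM in the 2NF control and 30417, 15059 and 13833 RPM at low, mid and high. In MMS it was 26822 RPM in the control and then 20753, 4315 and 8026 RPM. In ETP the sum was 33419 RPM in the control and 37989, 35549 and 39577 RPM, and none of the 10 was called. The summed cholangiocyte markers lay at 703 RPM in the 2NF control and 298, 306 and 317 RPM, and at 1339 RPM in the AFB1 control and 1003, 1325 and 1366 RPM. The 3 of them that could be tested went both ways under 2NF, KRT19 and SOX9 falling by 0.53 and 0.42 and SPP1 rising by 0.39 log2 per step, and none was called under AFB1. Under MMS SOX9 and SPP1 fell by 0.53 and 0.61, and KRT19, at −0.29, was not called. Under COL SPP1 fell by 0.60, and SOX9 and KRT19, at 0.24 and −0.08, were not called. The part of these markers in the trends of the members was not tested, and in bulk libraries more cells that replicate and more RNA per such cell cannot be told apart.

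Genes of the same pathways outside the members were counted in the same fit. Of 26 further replication genes tested, 7 rose under 2NF, 4 under AFB1, 4 under COL and 4 under MMS, with 1 lower there. TICRR (treslin, which loads CDC45) rose by 0.70, 0.53 and 0.48 log2 per step in 2NF, AFB1 and COL, and RNASEH2A by 0.42, 0.46 and 0.31. POLD2, a polymerase delta subunit, fell by 0.29 log2 per step under MMS. Of 17 further nucleotide genes, 4 rose and 1 fell under 2NF, 3 rose under AFB1, 3 rose and 1 fell under MMS, and 1 rose and 1 fell under COL. Over all genes tested, 4.3% were called higher and 4.45% lower under 2NF, and 2.36% and 3.21% under AFB1. The shares were 5.1% and 10.4% under MMS and 5.13% and 7.21% under COL. Counts of 1 in these lists lie near such shares. SHMT1, a serine hydroxymethyltransferase of folate metabolism, fell by 0.36, 0.53 and 0.44 log2 per step in 2NF, MMS and COL. None of either list was called in CISP, ETP, 2DG, AMP, ASC or NaCl.

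The comparison of the DDI with the non-DDI chemicals asked whether the ratio to the control differed by class at each level, with 5 chemicals a side. At the high concentration 2 of 44 members were higher in the DDI class, TYMS and ASF1B, where 0.0515% of 13602 genes were higher and 0% lower. TYMS differed by 1.17 ± 0.19 log2 (SE; adjusted p = 0.0475) and ASF1B by 1.83 ± 0.27 (adjusted p = 0.0329). All 44 estimates were above 0 with a median of 0.78, and 30 of 44 had an unadjusted p under 0.05, beside 4.33% of all genes that were higher at that level. PCNA differed by 1.10 ± 0.20 (adjusted p = 0.0683). DESeq2 called 13 members, where it called 78 of 13602 genes higher and 18 lower. A fit of all 39 libraries called 17 members, with calls over all genes not given here. PCNA was among the members called in both. Without the control-set block or with at least 10 reads in every library 0 members were called. Without any one of 2NF, AFB1, ETP, 2DG, AMP, ASC or NaCl 0 were called, without CISP 1, without COL 3 and without MMS 4.

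At the mid level 0 members were called by edgeR (background 0% in each direction) and 1 by DESeq2, which called 12 of 13626 genes higher and 0 lower. At an unadjusted p under 0.05, 18 members were higher (background 2.49%), and the median difference was 0.40. At the low level 0 were called by edgeR and DESeq2 (background 0%), 1 was higher at an unadjusted p under 0.05 (TYMS, background 1.03%), and the median was 0.14. PCNA differed by 0.49 ± 0.20 (adjusted p = 0.807) at mid and 0.26 ± 0.15 (adjusted p = 0.999) at low. The vehicle went with the class: 4 of 5 non-DDI chemicals were in medium and no DDI chemical was, so the class and the vehicle cannot be told apart except through COL, whose values stand above.

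The vehicle itself went with large differences in these genes. In a comparison of the 4 DMSO with the 4 media controls, added after the values had been seen, 35 of 44 members were lower in DMSO and 0 higher, where 3.68% of 13053 genes were lower and 1.66% higher. The median difference of the members was −1.10 log2 and that of all genes 0.02. In 36 of 45 members all 4 DMSO controls were below all 4 media controls, beside 8.88% of the 12915 targets. Leaving out 1 control gave 28 to 35 members called.

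All of MCM2 to MCM7 were lower in DMSO, by 0.97 to 1.34 on the log2 scale, as were ORC1, ORC6, CDC6, CDT1, CDC45 and MCM10. UHRF1 was at 2.31, 3.35, 3.93 and 5.66 RPM in DMSO and 12.5, 14.4, 14.6 and 14.7 RPM in media, a difference of −1.84 ± 0.24 log2 (SE; adjusted p = 0.00309). CDC45 was at 2.35 to 5.94 RPM in DMSO and 13.1, 14.4, 14.8 and 16.2 RPM in media (−1.80 ± 0.25, adjusted p = 0.00397). DTL was at 7.04, 8.99, 9.53 and 12.1 RPM in DMSO and 25.4, 28.7, 34.4 and 38.7 RPM in media (−1.73 ± 0.19, adjusted p = 0.00173). The groups did not overlap for UHRF1, CDC45 or DTL. PCNA was at 54.0, 57.1, 57.8 and 64.8 RPM in DMSO and 79.4, 81.0, 107 and 119 RPM in media, again without overlap, and differed by −0.70 ± 0.14 (adjusted p = 0.0187). Without the CISP, the 2NF or the 2DG control the adjusted p of PCNA was 0.0698, 0.0548 and 0.0513.

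**Figure D4:**
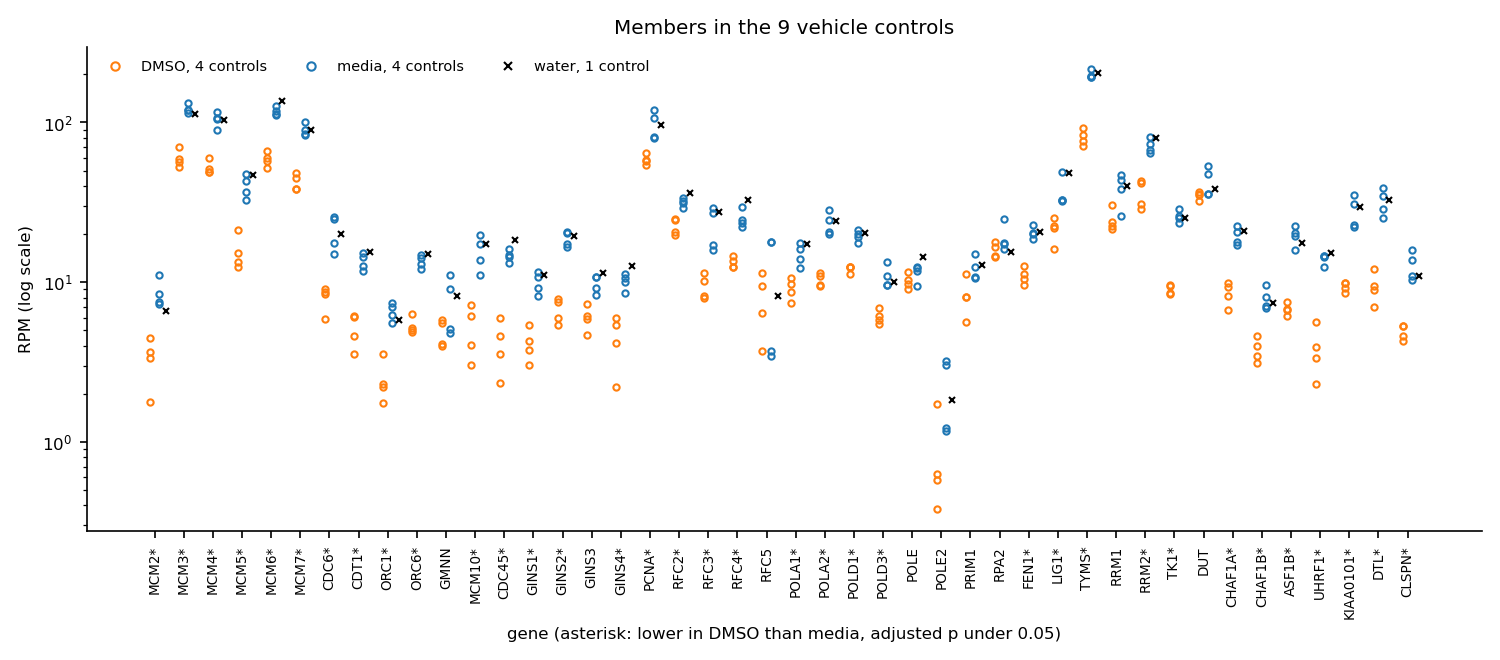
RPM (log10 axis) of the 44 members other than RPA3 in the 9 vehicle controls: 4 in DMSO (orange), 4 in medium (blue) and 1 in water (black cross). The orange points lie below the blue ones for most members, and the water control lies near the blue points.

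GMNN, GINS3, RFC5, POLE, POLE2, PRIM1, RPA2, RRM1 and DUT were the 9 members tested that did not pass. Mitosis genes went the same way, 7 of 11 lower in DMSO, beside 3.68% of all genes tested. Sums over the mitosis list were 97.0 to 130.4 RPM in DMSO and 178.3 to 327.9 RPM in media. Of the hepatocyte markers 4 of 10 were higher in DMSO, beside 1.66% of all genes tested. Among these markers were CYP3A4, by 3.09, TTR, by 1.55, and APOA1, by 0.82 log2. DMSO is commonly added to HepaRG cultures to promote and hold differentiation. The controls belonged to different chemicals, and whether their cultures were grown at the same time is not given in the sources used here, so the vehicle and the culture set cannot be told apart.

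The level that the DDI libraries in DMSO reached can be read against the media controls. The DMSO controls had 39 to 41 of 45 members below all 4 media controls, beside 23.6% to 27.2% of the 12915 targets. In the high 2NF and AFB1 libraries 3 and 2 members were still below, beside 23.2% and 23.1% of targets, and 28 and 26 were above all media controls, beside 33.8% and 29.6%. In the high ETP library 24 members were below and 4 above (23.1% and 19.8% of targets), in the high COL library 33 and 2 (26.6% and 30.1%), and in the high CISP library 32 and 1 (22.6% and 25.9%). The water control of MMS had 3 below and 10 above (13.1% and 20.6% of targets), and the high MMS library 2 below and 31 above (24.4% and 43% of targets). TYMS, for example, was at 290 RPM in the high 2NF library and 335 RPM in the high AFB1 library, above the media controls at 192, 192, 194 and 216 RPM, whereas in the high COL library it was at 152 RPM, under them and over the DMSO controls at 71.2 to 92.6 RPM.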

How the data were processed

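RNA of 39 HepaRG conditions, each pooled from 3 cultures, was sequenced by the authors with the AmpliSeq human transcriptome panel, and reads were aligned to the panel's transcripts (hg19, per the labels) with the Torrent Mapping Alignment Program. The authors deposited read counts per target, not normalized, and RPM, the counts scaled to the library total; RPM recomputed from the counts differed by at most 0.000538. Spike-in targets (10, all at 0) were left out, leaving 20802. Members were matched by gene symbol; members and lists were chosen with earlier results of these data known.

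Counts were tested with edgeR 4.0.16 (TMM, filterByExpr, quasi-likelihood, Benjamini-Hochberg) in R 4.3.3: a trend fit of 39 libraries with 9 control sets as blocks (20 residual degrees of freedom), a class fit at each concentration (8), and DMSO against media controls (6). Log2 ratios used log2(RPM + 1), which understates changes of low genes. Full statistics were given for PCNA and the 3 called members with the largest effect in each direction. Alternatives were DESeq2 1.42.0, RLE factors, library totals, other filters, a vehicle block, relative concentration and leave-one-out. The test was checked on simulated data with straight-line changes, the same spread for all genes and independent libraries. That check does not cover variation between cultures or series that level off. Totals were 8504699 to 16425527 reads; floors and counting error do not cover variation between cultures. Promoters were the first RefSeq start listed for a gene. Some genes of the lists outside the members are not reported here by name.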

Additional observations from a re-analysis of the deposited data

Results flagged for a closer look

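The concentration trend was lower under COL than under AFB1 in 11 of the members tested, by a contrast of the slopes in the fit of 39 libraries, and the values are given in the report. The same contrast of MMS with AFB1, added after the values had been seen, called 1 member lower, GINS2.

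Groups of 4 or 5 libraries were searched for a library far from the rest, 32 groups in all, of which 3 were found; chance flags about 1 in 20. At the low concentration, 2NF had a median log2 ratio of the members of 0.56, apart from the other DDI chemicals, which lay between 0.13 and 0.25. TYMS was at 216 RPM in the 2DG media control, above the other media controls at 192 to 194 RPM, and UHRF1 was at 12.5 RPM in the AMP media control, below the others at 14.4 to 14.7 RPM.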

How the results depend on the processing

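Members called under 2NF kept within 1.5 times of 34 in the alternatives run except with relative concentration (14) and without the high concentration (13), and under AFB1 of 30 except without the high concentration (0). ETP (6) went to 12 with DESeq2, 2 with library totals, 16 with the vehicle block and 0 with relative concentration. COL (6) went to 11 with library totals, 28 with the vehicle block, 0 with relative concentration and 13 without the CISP libraries at 2 and 5 µM. MMS (13) went to 2 with relative concentration, and 1 member, MCM5, was called lower with DESeq2, with no filter, without the mid concentration and without those CISP libraries. CISP (0) went to 1 with DESeq2 and 4 with the vehicle block, and ASC (0) to 1 with DESeq2. The lower members of COL minus AFB1 (11) went to 6 with the vehicle block and 3 with relative concentration, and those of MMS minus AFB1 (1) to 3 with DESeq2, 8 with the vehicle block, 0 with relative concentration and 3 without those CISP libraries. The DDI minus non-DDI count at the high concentration (2) went to 13 with DESeq2, 1 with RLE factors, 8 with no filter, 0 with 10 counts in every library, 0 with no control-set block and 17 in a fit of all libraries, and at the mid concentration (0) to 1 with DESeq2 and 1 in a fit of all libraries. The causes were not tested, and calls over all genes are not given beside these counts. Leaving out 1 concentration gave 13 to 32 members in 2NF, 0 to 31 in AFB1, 0 to 5 in ETP, 4 to 9 in MMS with 0 to 1 lower, 0 to 2 in COL, 0 to 8 in COL minus AFB1 and 0 to 2 in MMS minus AFB1. Leaving out 1 chemical gave 0 to 4 at the high and 0 to 1 at the mid concentration, and leaving out 1 control 28 to 35. Of 120 medians recomputed, 25 moved by more than the SD between controls (0.05 log2 in DMSO, 0.13 in media) and 3 changed sign. No paired analysis was possible because the labels number no replicates. POLE2 and RPA3 had the fewest reads of the members, and whether the RPA3 target, at 0 or 1 read, amplifies at all was not tested.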
